A study of Mus musculus with 12 samples.

Results

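The guanylate-binding proteins (GBPs) and the immunity-related GTPases (IRGs) are GTPase families that mouse macrophages make in response to interferons. The 10 genes described here, Gbp2, Gbp3, Gbp5, Gbp6, Gbp7, Igtp, Irgm1, Irgm2, Ifi47 and Tgtp1, were taken by their symbols from an RNA-seq table that lists 38739 gene symbols, and all 10 were found. A further 13 genes of the families in the table are described after them. The study asked how deletion of cGAS, the sensor of cytosolic DNA that makes 2′3′-cGAMP and activates STING, changes the macrophage response to lipopolysaccharide (LPS), the outer membrane glycolipid of gram-negative bacteria.

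The 12 libraries came from bone marrow-derived macrophages (BMDMs) and fall into 4 groups of 3. The groups are WT cells with media control (WT UT), WT cells with LPS (WT LPS), cGAS knockout cells with media control (cGAS-/- UT) and cGAS knockout cells with LPS (cGAS-/- LPS). The labels give an LPS dose of 100 ng/mL for 1 h, whereas the methods of the study give another dose and 24 h, so the dose and the time of exposure are uncertain. The labels otherwise give macrophages, but their extraction text names neutrophils. The knockout is a germline deletion carried by the mice, and the cells are a culture grown from marrow. The methods give C57BL/6J as the background and state that the animals were male and 8 weeks old. Samples are named as triplicates, the legend of the study calls its replicates technical, and nothing ties a sample to one animal, so that p-values measure only the spread between these samples.

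GBPs are large GTPases that assemble into coats on cytosolic bacteria and on the vacuoles of pathogens, where they expose LPS to caspase-11 (the product of Casp4) and help to open the vacuole. IRGs are smaller and form separate classes. The IRGM proteins Irgm1, Irgm2 and Igtp (also called Irgm3) sit on the membranes of the cell and hold the effector IRGs inactive there, whereas effectors such as the products of Ifi47 (Irgd) and Tgtp1 (Irgb6) load onto pathogen vacuoles. Both families are induced by interferon-γ and by type I interferon, the latter of which LPS-treated macrophages secrete themselves.

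In GRCm39, Gbp5 (chr3:142199739-142228105), Gbp7 (chr3:142236044-142255910), Gbp3 (chr3:142265731-142278979) and Gbp2 (chr3:142326349-142343779) lie in a row on the plus strand of chromosome 3. Gbp6 (chr5:105418568-105443751) lies on the minus strand of chromosome 5. All of the IRG members are on chromosome 11. Irgm1 (chr11:48752795-48763164) and Tgtp1 (chr11:48876154-48884999) are on its minus strand. Ifi47 (chr11:48967412-48987813), Igtp (chr11:58089840-58098417) and Irgm2 (chr11:58090444-58113615) are on its plus strand. Several members overlap another gene on the same strand, so the assignment of reads to either gene of such a pair is uncertain. Igtp and Irgm2 overlap by 7974 bp, Tgtp1 and the family gene Gm12185 by 6994 bp, and Gbp6 and Gm43302 by 22994 bp. Ifi47 lies within the olfactory receptor gene Or2v1 over all of its 20402 bp, and Gbp7 overlaps Gm43802 by 637 bp. Tgtp1 also has a near-identical copy, Tgtp2 (chr11:48948021-48955033), which matched 97.4% of the longest Tgtp1 transcript at 99.7% identity. Gbp6 shares 91.7% of its longest transcript with Gbp10 at 99.2% identity and 86.2% with Gm43302 at 99.8% identity. How much of the reads of Tgtp1 and Gbp6 came from those copies cannot be told from these values.

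The promoters were searched for the motifs read by the interferon factors, since all members are interferon-inducible. RefSeq promoters on GRCm38.p6, each from 250 bases before to 50 bases after a transcription start, were found for 9 of the 10 members, and Gbp6 was not matched. The core of the interferon-stimulated response element (ISRE), the site of IRF factors, was taken as GAAANNGAA, and the gamma-activated site (GAS), an element of interferon-γ responses, as TTCNNNGAA, both on either strand. An ISRE core was found in 8 of the 9 members with a promoter, against 8.56% of all 32851 promoters of the table. A GAS was found in 5 of them (Gbp5, Gbp7, Igtp, Irgm2 and Tgtp1), against 8.30% of all promoters. The promoter of Ifi47 held neither, which says only that these letters are not in this window. The core was not particular to the members, since it was also found in 5 of 8 other family genes with a promoter and in 5 of 10 interferon-induced genes of other families. A GAS was found in 3 and 0 of these. The stretches around the ISRE cores are shown because most members hold one and because they show how close some of the copies are. Each runs 5′ to 3′ on the strand of its gene, with the bases of the ISRE cores in capitals.
Gbp2: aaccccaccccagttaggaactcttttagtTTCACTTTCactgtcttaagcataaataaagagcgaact
Gbp3: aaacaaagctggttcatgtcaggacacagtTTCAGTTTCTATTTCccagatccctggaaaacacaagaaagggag
Gbp5: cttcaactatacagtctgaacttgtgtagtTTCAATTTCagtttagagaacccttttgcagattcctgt
Gbp7: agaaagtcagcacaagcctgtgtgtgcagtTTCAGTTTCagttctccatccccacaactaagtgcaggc
Irgm1: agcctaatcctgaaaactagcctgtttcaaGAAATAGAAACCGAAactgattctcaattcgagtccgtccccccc
Irgm2: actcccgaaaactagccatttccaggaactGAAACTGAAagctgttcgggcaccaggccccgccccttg
Igtp: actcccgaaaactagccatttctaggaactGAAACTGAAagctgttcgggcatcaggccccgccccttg
Tgtp1: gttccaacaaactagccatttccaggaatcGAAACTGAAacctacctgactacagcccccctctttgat
Tgtp2: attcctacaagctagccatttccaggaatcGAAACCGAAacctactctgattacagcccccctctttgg

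On GRCm38.p6 these stretches are chr3:142620575-142620643 for Gbp2, chr3:142559970-142560044 for Gbp3, chr3:142496740-142496808 for Gbp5 and chr3:142530254-142530322 for Gbp7, all plus strand. They are chr11:48871406-48871480 for Irgm1, chr11:48992285-48992353 for Tgtp1 and chr11:49064244-49064312 for Tgtp2 on the minus strand, and chr11:58214883-58214951 for Irgm2 and chr11:58199492-58199560 for Igtp on the plus strand. The core was on the strand opposite to the gene in the 4 Gbp promoters and on the strand of the gene in the IRG promoters. In Gbp3 and Irgm1, 2 cores overlapped each other. In Igtp, Irgm2 and Tgtp1 the GAS ended 2 bases before the ISRE core, and no GAS overlapped an ISRE core in a member. The Igtp and Irgm2 promoters were 92.1% identical over 265 aligned bases, and those of Tgtp1 and Tgtp2 were 80.5% identical over 272.

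The deposited values are taken as TPM, an abundance corrected for transcript length, that appears to be averaged over the transcripts of a symbol, so levels of genes with different numbers of transcripts are only roughly comparable, and the number of reads behind them is unknown. Column totals were 447189 to 503156 in 11 libraries and 709802 in WT LPS replicate 3. In that library the ferritin pseudogene Fth-ps3 held a 31.7% share, compared with 6.24% to 17.7% elsewhere, and the share of protein-coding genes was 18.5%, compared with 39.7% to 54.4%. The main calls that change without that library are therefore given beside the comparisons. Cgas was between 1.19 and 3.25 TPM in the WT libraries and between 0.0703 and 0.291 TPM in the cGAS-/- libraries, as the labels say. The summed level of 8 macrophage markers was 18813 to 35781 TPM in every library, most of it Lyz2 (15701 to 33426 TPM). Among the others, Mrc1 was lower in cGAS-/- than in WT cells, with log2 changes of -1.68 in untreated cells (adjusted p = 0.012) and -1.99 with LPS (adjusted p = 0.0058), whereas Lyz2 was higher in cGAS-/- LPS than in WT LPS by 0.80 (adjusted p = 0.037). With LPS 4 of the 8 markers fell and 1 rose in WT cells, and 3 fell and 3 rose in cGAS-/- cells. The changes in WT and cGAS-/- cells were -3.41 and -3.72 for Mrc1, -1.67 and -2.12 for Cd68, -1.25 and -1.22 for Ctsd and 2.48 and 2.13 for Fcgr1. Mertk passed in WT cells (-1.47), and Itgam (1.66) and Lyz2 (0.71) in cGAS-/- cells. Without WT LPS replicate 3, 4 of the 8 markers fell and 3 rose in WT cells, Itgam and Spi1 among the latter. In cGAS-/- cells 4 fell and 4 rose in that fit. In these bulk libraries, fewer cells of a type and less RNA per cell cannot be told apart.

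In untreated cells the members were low, and in 9 of them every cGAS-/- library was below every WT library, against 18.4% of tested genes. With LPS all 10 were above every untreated library of the same genotype, against 5.31% of tested genes in WT and 15.5% in cGAS-/- cells. By the test 2 were lower with LPS in cGAS-/- than in WT cells, against 1.00% of tested genes. Tests used limma on log2(TPM + 1) over 11887 genes with Benjamini-Hochberg adjustment, and a gene passed at an adjusted p under 0.05. The study's own criterion joins this with a log2 fold change beyond 2, so that calls on the adjusted p alone are wider. All 10 members passed the filter on low values, 3 of them (Gbp5, Gbp6 and Tgtp1) only through LPS-treated libraries. The rise of these 3 with LPS is therefore partly fixed by the filter. Fold changes are on the log2(TPM + 1) scale, which understates the change of genes near or below 1 TPM.

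**Figure D1:**
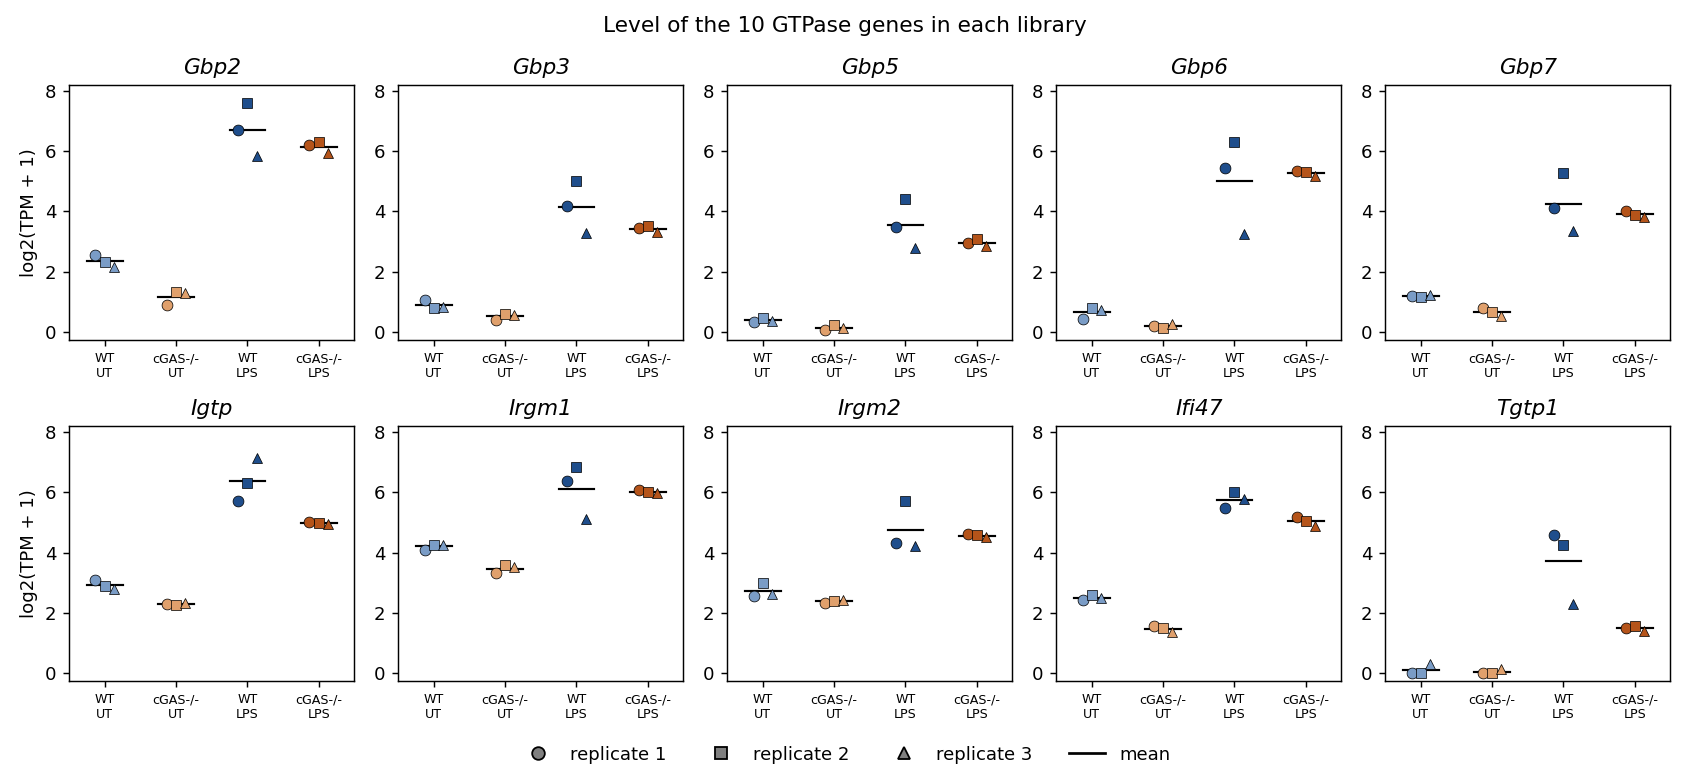
Level of each member on the log2(TPM + 1) scale (vertical axis) in the 3 libraries of each group (horizontal axis), with symbols for the replicates and a bar for the mean. All 10 members are higher in LPS-treated than in untreated libraries of either genotype, and the WT LPS libraries are the most spread.

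Among the GBPs, Gbp2 was 4.93, 4.0 and 3.45 TPM in WT UT, 103, 191 and 55.8 TPM in WT LPS, 0.871, 1.49 and 1.44 TPM in cGAS-/- UT and 73.0, 77.4 and 61.1 TPM in cGAS-/- LPS. Every LPS library was above every untreated one, and in untreated cells each WT library was above each cGAS-/- library. With LPS the genotypes overlapped, because WT LPS replicate 3 was below all of the cGAS-/- LPS libraries.

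Gbp3 was 1.10, 0.745 and 0.793 TPM in WT UT, 17.0, 31.6 and 8.85 TPM in WT LPS, 0.307, 0.504 and 0.496 TPM in cGAS-/- UT and 10.0, 10.4 and 8.87 TPM in cGAS-/- LPS. Gbp5, whose product is also known for a part in NLRP3 inflammasome assembly, was 0.260, 0.382 and 0.276 TPM in WT UT, 10.2, 20.2 and 5.92 TPM in WT LPS, 0.0575, 0.161 and 0.104 TPM in cGAS-/- UT and 6.73, 7.48 and 6.31 TPM in cGAS-/- LPS. Both had the pattern of Gbp2, with WT LPS replicate 2 the highest of all libraries and replicate 3 just below the cGAS-/- LPS libraries.

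Gbp6 was 0.364, 0.749 and 0.678 TPM in WT UT, 42.6, 77.9 and 8.50 TPM in WT LPS, 0.145, 0.0921 and 0.213 TPM in cGAS-/- UT and 40.0, 38.9 and 34.8 TPM in cGAS-/- LPS. It had the widest spread in WT LPS of the members on the log2 scale. Gbp7 was 1.29, 1.22 and 1.34 TPM in WT UT, 16.3, 38.2 and 9.11 TPM in WT LPS, 0.736, 0.588 and 0.434 TPM in cGAS-/- UT and 15.2, 13.7 and 13.2 TPM in cGAS-/- LPS. For both, WT LPS replicates 1 and 2 were above, and replicate 3 below, the cGAS-/- LPS libraries.

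Among the IRGM regulators, Irgm1 was the most abundant member in untreated cells. It was 16.1, 18.2 and 18.3 TPM in WT UT, 82.6, 113 and 33.7 TPM in WT LPS, 9.05, 11.0 and 10.4 TPM in cGAS-/- UT and 67.2, 63.8 and 62.0 TPM in cGAS-/- LPS. Irgm2 was 4.88, 7.02 and 5.12 TPM in WT UT, 19.1, 51.5 and 17.7 TPM in WT LPS, 3.98, 4.32 and 4.42 TPM in cGAS-/- UT and 23.4, 22.8 and 21.9 TPM in cGAS-/- LPS. With LPS the genotypes overlapped in both genes.

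Igtp, which overlaps Irgm2 in the genome, was 7.47, 6.46 and 6.01 TPM in WT UT, 51.5, 78.6 and 139.5 TPM in WT LPS, 3.91, 3.80 and 4.02 TPM in cGAS-/- UT and 31.6, 31.0 and 29.7 TPM in cGAS-/- LPS. It was the one member that was highest in WT LPS replicate 3, the library in which Irgm2 was lowest of the WT LPS libraries. Its genotypes did not overlap in either condition.

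Of the effector IRGs, Ifi47 was 4.42, 5.11 and 4.59 TPM in WT UT, 43.3, 64.3 and 53.7 TPM in WT LPS, 1.99, 1.82 and 1.57 TPM in cGAS-/- UT and 35.4, 32.1 and 28.4 TPM in cGAS-/- LPS. Its 4 groups were all separate, in the order cGAS-/- UT, WT UT, cGAS-/- LPS and WT LPS. Tgtp1 was listed at 0 in replicates 1 and 2 of both untreated groups, and was 0.234 TPM in WT UT replicate 3 and 0.105 TPM in cGAS-/- UT replicate 3. With LPS it was 23.2, 18.1 and 3.88 TPM in WT and 1.86, 1.98 and 1.66 TPM in cGAS-/- cells, which do not overlap.

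LPS raised all 10 members in WT cells, and 9 of them went beyond a log2 fold change of 2. Both counts include Gbp5, Gbp6 and Tgtp1, whose rise is partly fixed by the filter. The exception to the fold was Irgm1, with a log2 fold change of 1.90 (SE 0.37, adjusted p = 0.0037). Of all tested genes, 4.31% were higher with LPS in WT cells and 1.43% also beyond that fold. The largest fitted change was that of Gbp2 at 4.36 (SE 0.38, adjusted p = 2.0e-05), with a mean of 117 ± 68.6 TPM (SD, n = 3) in WT LPS and 4.13 ± 0.747 TPM in WT UT, a 28.3-fold ratio. Gbp6 followed at 4.33 (SE 0.58) and Tgtp1 at 3.61 (SE 0.46), and the smallest changes beyond the fold were those of Irgm2 at 2.03 (SE 0.35) and Gbp7 at 3.06 (SE 0.38). The median log2 fold change of the members was 3.25, against -0.46 for all tested genes. In all 10 members the LPS and untreated libraries of WT cells did not overlap, as in 5.31% of tested genes. When the WT libraries were fitted alone 8 of the members passed, against 1.40% of tested genes, with adjusted p = 0.077 for Irgm1 and 0.058 for Irgm2, and over all alternative settings the adjusted p went no higher. Without WT LPS replicate 3 all 10 members were raised, against 8.26% of tested genes by the adjusted p alone. All 10 also went beyond a log2 fold change of 2, from 2.30 for Irgm2 and 2.40 for Irgm1 to 4.8 for Gbp2 and 5.21 for Gbp6. The share of tested genes beyond that fold is not given for this fit. The ratio for Gbp2 was then 35.6-fold.

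In cGAS-/- cells LPS raised 9 members, all beyond a log2 fold change of 2. The count includes Gbp5 and Gbp6, whose rise is partly fixed by the filter. Of all tested genes, 4.76% were higher and 1.94% also beyond the fold. Gbp6 changed by 5.08 (SE 0.58) and Gbp2 by 4.98 (SE 0.38, adjusted p = 8.5e-06), the latter from 1.27 ± 0.343 to 70.5 ± 8.42 TPM (SD, n = 3), a 55.7-fold ratio. Ifi47 changed by 3.56 (SE 0.21), Gbp7 by 3.25 (SE 0.38), Igtp by 2.69 (SE 0.31), Irgm1 by 2.56 (SE 0.37) and Irgm2 by 2.18 (SE 0.35). The member that missed the threshold was Tgtp1, with a change of 1.45 (SE 0.46, adjusted p = 0.061). Its 3 LPS libraries were nevertheless above its 3 untreated ones, as were those of all 10 members, against 15.5% of tested genes. The median of the members was 2.86 and that of all tested genes -0.20. With the 6 cGAS-/- libraries fitted alone all 10 members passed, against 12.7% of tested genes, as they did without WT LPS replicate 3, where 9.19% of tested genes were higher.

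**Figure D2:**
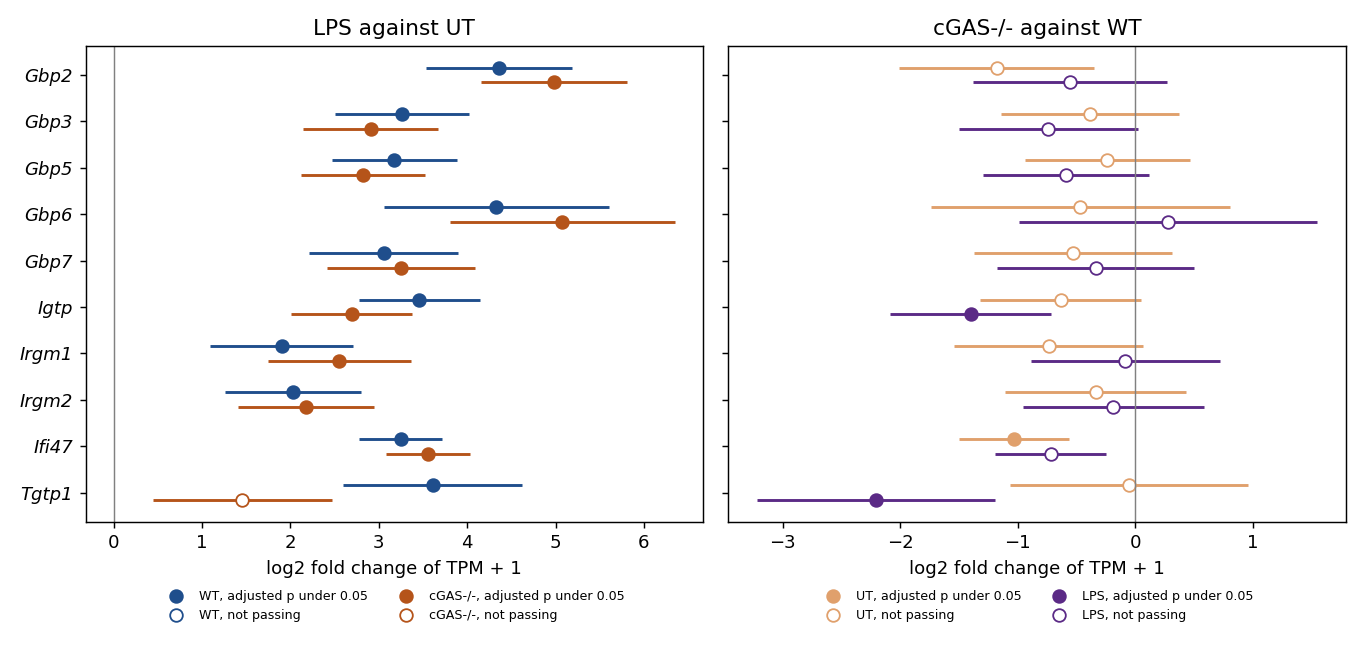
Log2 fold change of TPM + 1 (horizontal axis) with its 95% confidence interval for each member (vertical axis), LPS against UT in each genotype on the left and cGAS-/- against WT in each condition on the right. Filled circles passed an adjusted p of 0.05. On the left all estimates but that of Tgtp1 in cGAS-/- cells pass, and on the right 3 do.

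The difference of the LPS effect between the genotypes (the interaction term) passed in 0 of the 10 members by limma, and 1 had an unadjusted p under 0.05. Of all tested genes 0.900% passed. The exception at the unadjusted level was Tgtp1, whose LPS effect was 2.16 smaller on the log2 scale in cGAS-/- cells (interaction -2.16, 95% confidence interval -3.59 to -0.73, unadjusted p = 0.0069, adjusted p = 0.21). Without WT LPS replicate 3 its interaction was -2.87 and passed, as in 4.56% of tested genes, with an adjusted p of 9.0e-05, and over all alternatives its adjusted p ranged up to 0.50. For the others the estimates lay between -0.77 (Igtp) and 0.75 (Gbp6), with intervals that include 0, and for all of these but Ifi47 the interval reaches beyond 1 on this scale. Without WT LPS replicate 3 the estimates of these 9 lay between -0.79 (Gbp3) and 0.32 (Ifi47), with an adjusted p of 0.21 or more.

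In LPS-treated cells 2 members were lower in cGAS-/- than in WT cells, against 1.00% of tested genes. Igtp, which did not reach the log2 fold change of 2, fell by 1.40 on the log2 scale (SE 0.31, adjusted p = 0.044), with means of 30.8 ± 0.963 TPM in cGAS-/- LPS and 89.9 ± 45.1 TPM in WT LPS (SD, n = 3). Tgtp1 fell by 2.21 (SE 0.46, adjusted p = 0.033), and was the one member beyond the log2 fold change of 2, which 0.337% of tested genes passed in this direction. Its means were 1.84 ± 0.161 and 15 ± 10.0 TPM, an 8.2-fold ratio that was 11.2-fold without WT LPS replicate 3. With Ifi47, whose change of -0.72 (SE 0.21, adjusted p = 0.12) missed the threshold, these are the 3 members with no overlap between the genotypes, against 5.17% of tested genes. The estimates were negative for 9 members, Gbp6 being the exception at 0.28 (SE 0.58), and Gbp6 was also negative with median-ratio scaling, which shifted the median of all tested genes from 0.20 to 0. The median over the members was -0.57.

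Both calls lie close to the threshold in the fit over all 12 libraries and depend on the libraries used. That fit shares its estimate of the spread with the other groups, which spread less than WT LPS. Leaving out any 1 library of WT UT, cGAS-/- UT or cGAS-/- LPS left 0 members passing. Without WT LPS replicate 1 only Igtp passed, against 1.73% of tested genes, and without replicate 2 Igtp, Ifi47 and Tgtp1 did, against 3.98%. Without WT LPS replicate 3, 7 members were lower in cGAS-/- cells, against 4.44% of tested genes, namely Gbp2 (-0.99), Gbp3 (-1.17), Gbp5 (-0.98), Igtp (-1.03), Irgm1 (-0.58), Ifi47 (-0.71) and Tgtp1 (-2.92), while Gbp6 (-0.59), Gbp7 (-0.79) and Irgm2 (-0.45) did not pass. The 6 LPS libraries fitted alone by limma gave 0 members, with an adjusted p of 0.51 for Igtp and 0.45 for Tgtp1. With median-ratio scaling Igtp no longer passed (adjusted p = 0.057) but Gbp2, Gbp3, Gbp5, Ifi47 and Tgtp1 did, against 2.18% of tested genes.

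**Figure D3:**
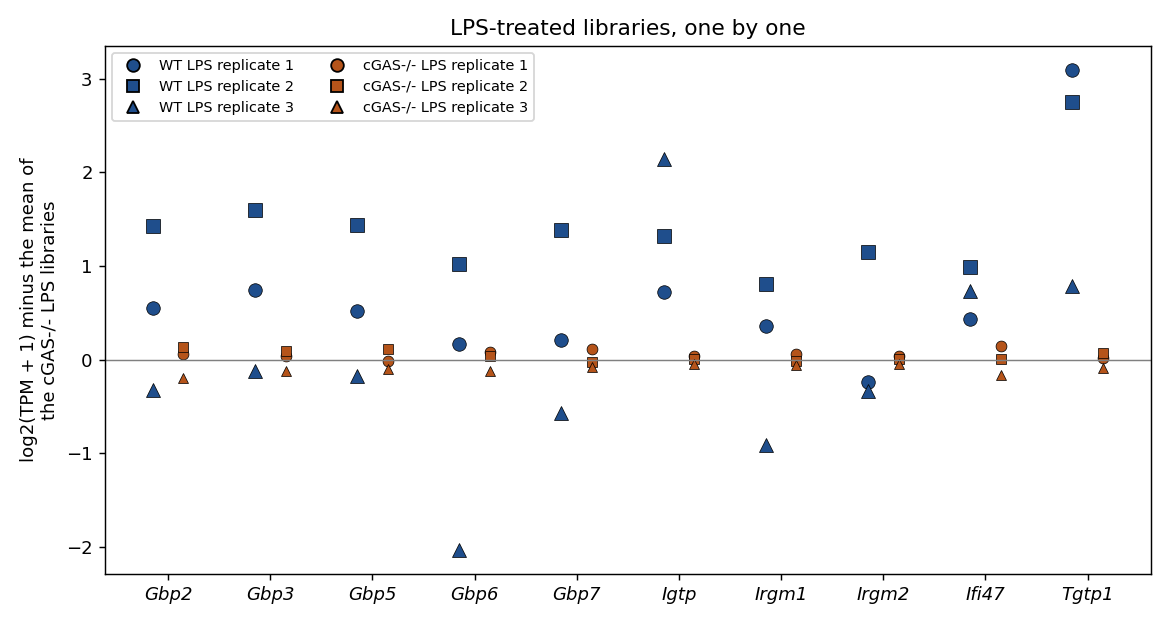
Difference of log2(TPM + 1) of each LPS-treated library from the mean of the cGAS-/- LPS libraries (vertical axis) for each member (horizontal axis), with a symbol for each library. The cGAS-/- LPS libraries stay close to 0, while WT LPS replicate 2 is the highest WT LPS library in 8 members and WT LPS replicate 3 the lowest in 8, but the highest in Igtp.

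The WT LPS libraries thus spread in a common order for most members. The median standard deviation over the members was 0.87 on the log2 scale in WT LPS and 0.10 to 0.14 in the other groups. Over all tested genes it was 0.63 in WT LPS and 0.12 to 0.15 elsewhere. Averaged over the 10 members, the log2 level was 5.04, 5.78 and 4.30 in WT LPS and 4.44, 4.43 and 4.28 in cGAS-/- LPS. The part of the unusual composition of WT LPS replicate 3 in these differences was not tested.

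Tgtp1 can be set beside its copy Tgtp2. Tgtp2 was 174, 209 and 46.1 TPM in WT LPS and 60.7, 54.4 and 51.1 TPM in cGAS-/- LPS, and its change of -1.10 (SE 0.46, adjusted p = 0.23) did not pass. Tgtp1 made up 11.7%, 7.93% and 7.75% of the sum of the pair in WT LPS and 2.97%, 3.52% and 3.15% in cGAS-/- LPS. The shares do not overlap between the genotypes. In untreated cells Tgtp2 was 3.64, 3.79 and 3.28 TPM in WT and 0.558, 1.06 and 0.934 TPM in cGAS-/- cells, so the low untreated values of Tgtp1 are not those of the pair.

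In untreated cells 1 member, Ifi47, was lower in cGAS-/- than in WT cells by the fit over all 12 libraries, with a change of -1.03 (SE 0.21, adjusted p = 0.034), against 1.58% of tested genes. It did not reach the log2 fold change of 2. Its means were 1.79 ± 0.211 and 4.71 ± 0.361 TPM (SD, n = 3). The largest estimate was that of Gbp2 at -1.18 (SE 0.38, adjusted p = 0.24), a 3.26-fold difference of the means. All 10 estimates were negative, with a median of -0.50 against -0.04 for all tested genes. That of Tgtp1, at -0.05, was 1.3e-04 after quantile normalization. The 9 members with no overlap between the genotypes were all but Tgtp1.

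This fit shares one estimate of the spread with the WT LPS libraries. With the 6 untreated libraries fitted alone 5 members passed, namely Gbp2, Gbp7, Igtp, Irgm1 and Ifi47, against 7.07% of tested genes. With sample weights Gbp6 passed as well, which makes 6, against 8.03%. Without WT LPS replicate 1, 2 and 3 in turn 1, 2 and 4 members passed, against 1.88%, 2.35% and 4.17% of tested genes. Leaving out any 1 of the untreated or cGAS-/- LPS libraries left 0 passing, that of Ifi47 included. With median-ratio scaling Ifi47 no longer passed (adjusted p = 0.14) and Gbp2 did, against 1.54% of tested genes.

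Markers of B cells and, in untreated cells, of neutrophils differed in part between the genotypes. The summed level of dendritic cell markers did not overlap in untreated cells, but no tested marker of these cells passed. The summed level of 6 B cell markers was 108 to 134 TPM in WT UT and 19.9 to 28.5 TPM in cGAS-/- UT, and 30.6 to 44.9 TPM in WT LPS against 3.04 to 8.84 TPM in cGAS-/- LPS. That of 7 neutrophil markers was 139 to 213 TPM in WT UT, 52.9 to 125.6 TPM in cGAS-/- UT, 35.5 to 353 TPM in WT LPS and 46.4 to 59.9 TPM in cGAS-/- LPS. In untreated cells 1 of 4 tested B cell markers and 3 of 6 tested neutrophil markers (Elane, Ltf and Ngp) were lower in cGAS-/- cells. Elane and Ltf passed the filter only through WT libraries, so that their calls are partly fixed by the filter. With LPS 2 of the 4 B cell markers, Igkc and Cd79a, were lower in cGAS-/- cells. Cd79a passed the filter only through WT libraries, so that its call is partly fixed by the filter. With LPS 0 of the 6 neutrophil markers passed by limma (1 at an unadjusted p under 0.05), and their WT LPS sums enclose those of cGAS-/- LPS. In the fit without WT LPS replicate 3, in which 7 members were lower in cGAS-/- LPS, so were 3 of the 4 B cell markers, Cd79a (-1.11), Ighm (-1.82) and Igkc (-3.05), and the neutrophil marker S100a9 (-2.08, adjusted p = 0.041). Here too the call of Cd79a is partly fixed by the filter. Of the 8 macrophage markers, 4 were lower in that comparison, Mrc1 (-1.68), Fcgr1 (-1.10), Cd68 (-0.96) and Ctsd (-0.36), and Lyz2 (1.04) was higher. In untreated cells Ighm (-1.09) then passed beside Igkc (-3.52). The summed level of 6 dendritic cell markers was 6.97 to 7.38 TPM in WT UT and 3.88 to 6.20 TPM in cGAS-/- UT, which do not overlap, and 2.04 to 2.62 and 1.26 to 2.47 TPM with LPS, which do. Most of the untreated sum was Itgax, whose change of -0.49 (adjusted p = 0.79) did not pass. The part of these markers in the lower level of the members was not tested. The 6 erythroid markers summed to 1.56 to 37.4 TPM. The 7 markers of T and NK cells, the usual sources of interferon-γ, summed to 0.271 to 0.616 TPM, with Cd3e, Nkg7 and Ncr1 at 0 in every library of the 3 groups other than WT UT.

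The rest of the GBP and IRG families followed the members in part. Of 14 further family genes, 13 were in the table and 10 passed the filter, 3 of them (Gbp4, Gbp10 and Gm12185) only through LPS-treated libraries, so that their rise with LPS is partly fixed by the filter. In WT cells 6 of the 10 were raised by LPS, against 4.31% of tested genes, namely Tgtp2 by 4.72, Gm12250 by 2.12, Gbp9 by 1.68, Gbp4 by 1.51, Gm5431 by 1.5 and Gbp10 by 1.37 on the log2 scale. Irgq, a divergent relative, fell by 0.75 (adjusted p = 0.028). The changes of Gm12185 (0.94), 9930111J21Rik1 (-0.31) and 9930111J21Rik2 (-0.11) did not pass. Gm12185 passed as well (1.48) without WT LPS replicate 3.

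In cGAS-/- cells 4 of the 10 were raised, against 4.76% of tested genes, namely Tgtp2 by 4.94, Gm12250 by 3.34, Gm5431 by 1.71 and Gbp9 by 1.66, and Gbp4 (0.96) passed as well without WT LPS replicate 3. Between the genotypes 0 of the 10 passed by limma with LPS, where 2 (Tgtp2 and Gbp10) had an unadjusted p under 0.05, and 0 passed in untreated cells, where 1 (Tgtp2, -1.31) did. In untreated cells 9 of the 10 estimates were negative and 4 genes, Tgtp2, Gm12250, Gm5431 and 9930111J21Rik2, were lower in cGAS-/- cells without overlap, against 18.4% of tested genes. After WT LPS replicate 3 was left out, Tgtp2 (-1.77), Gm12185 (-1.35) and 9930111J21Rik1 (-0.96) were lower in cGAS-/- LPS than in WT LPS, against 4.44% of tested genes, and Tgtp2 passed in untreated cells. Gbp2b, Gbp8 and Gbp11 were below 1 TPM in every library and were not tested.

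**Figure D4:**
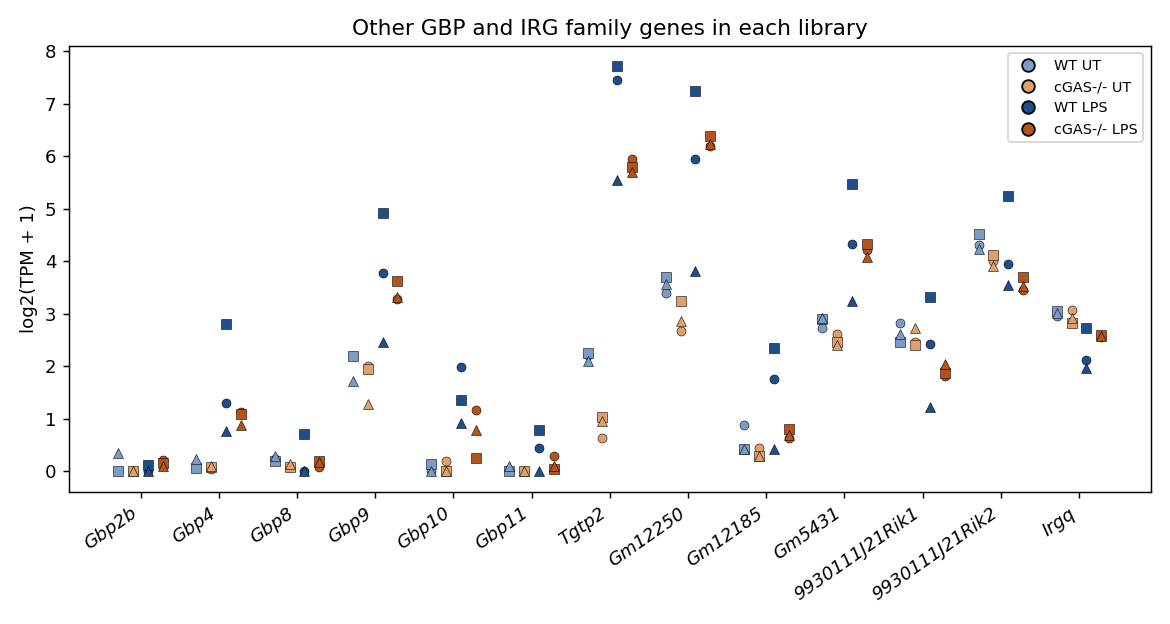
Level of 13 other GBP and IRG genes on the log2(TPM + 1) scale (vertical axis) in each library (horizontal axis, genes; colours, groups; circle, square and triangle, replicates 1, 2 and 3). Tgtp2 and Gm12250 reach the highest levels with LPS, and Gbp2b, Gbp8 and Gbp11 stay below 1 TPM.

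Of the genes that signal upstream, Ifng was listed at 0 in all 12 libraries. Ifnb1, which encodes interferon-β, was 8.43, 7.21 and 9.60 TPM in WT LPS and 3.42, 3.24 and 2.58 TPM in cGAS-/- LPS, and was listed at 0 in 5 of the 6 untreated libraries. It was lower in cGAS-/- LPS by 1.2 on the log2 scale (SE 0.18, adjusted p = 0.0060), whereas its interaction of -1.08 had an adjusted p of 0.087. With the 11 libraries other than WT LPS replicate 3 these were -1.12 (adjusted p = 0.0027) and -0.99 (adjusted p = 0.033). Stat2, a subunit of the factor that type I interferon activates, was raised by LPS by 2.17 in WT and 2.39 in cGAS-/- cells. Irf1, the early inducer of GBP genes, was raised by 1.15 and 0.93. Nlrc5, the activator of MHC class I genes, was raised in cGAS-/- cells (1.5) and missed the threshold in WT (1.09, adjusted p = 0.054), where it passed at 1.6 without WT LPS replicate 3.

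Irf8, a myeloid factor that pairs with PU.1, fell by 0.85 in WT cells and had an estimate of -0.82 in cGAS-/- cells (adjusted p = 0.081), and Ifngr1, a chain of the interferon-γ receptor, fell by 1.80 in WT cells (adjusted p = 0.048). Both of these falls were smaller without WT LPS replicate 3, in which Ifngr1 was 1.41 TPM, compared with 14.0 and 19.4 TPM in the other WT LPS libraries. The changes were then -0.50 for Irf8 and -0.85 for Ifngr1, and both passed, as did those in cGAS-/- cells, -0.82 and -1.02. Of the 10 tested genes of this list Ifnb1 alone passed between the genotypes with LPS, and 0 passed in untreated cells by limma (0 at an unadjusted p under 0.05). Without that library Irf8 passed as well (-0.46).

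The ubiquitin-like conjugation genes, which tell IRGs and GBPs which membranes to spare, had few calls. With LPS in WT cells 3 of 7 fell, against 23.3% of tested genes that were lower, Gabarapl1 by 2.74, Atg7 by 1.14 and Map1lc3a by 0.62, and in cGAS-/- cells 1 fell, Map1lc3a by 0.94, against 9.06% of tested genes. In the fit without WT LPS replicate 3, Gabarapl1 (-1.27), Atg7 (-0.70) and Gabarapl2 (-0.56) passed in cGAS-/- cells as well, which makes 4 of 7, against 21.6% of tested genes. All 7 estimates were negative in both genotypes, with medians of -0.62 and -0.56 against -0.46 and -0.20 for all tested genes. Gabarapl1 was 13 and 12.5 TPM in WT LPS replicates 1 and 2 and 0.491 TPM in replicate 3, against 13.2 to 14.2 TPM in cGAS-/- LPS. Without replicate 3 its change in WT cells was -1.67 and 4 of the 7 were lower in WT cells, against 26.5% of tested genes, while the estimates of Atg5 (0.25) and Gabarap (0.035) were positive. None of the 7 passed between the genotypes in either condition by limma, and 0 had an unadjusted p under 0.05, but Gabarap (-0.39) was lower in cGAS-/- LPS without WT LPS replicate 3. Of 5 tested genes for ubiquitin and adaptors at coated vacuoles, 1 rose with LPS in WT cells, the ubiquitin gene Ubb by 1.04, 0 passed in cGAS-/- cells by limma (0 at an unadjusted p under 0.05), and 0 passed between the genotypes (1 and 0 at an unadjusted p under 0.05 with LPS and in untreated cells). Leaving out WT LPS replicate 3, Trim21 rose by 1.17 in WT and 1.07 in cGAS-/- cells, and Ubb rose in cGAS-/- cells by 0.49 and was lower in cGAS-/- LPS than in WT LPS, with a change of -0.51.

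Of 6 inflammasome genes, 3 rose with LPS in both genotypes, against 4.31% and 4.76% of tested genes. In the fit without WT LPS replicate 3, 5 of 6 rose in each, against 8.26% and 9.19%, with Casp1 (1.35 in WT and 0.86 in cGAS-/- cells) and Aim2 (0.59 and 0.54) added. Casp4, which encodes the LPS receptor that GBPs feed, rose by 2.36 in WT and 1.80 in cGAS-/- cells. It was 18.4, 20.4 and 14.3 TPM in WT LPS and 9.34, 9.68 and 7.47 TPM in cGAS-/- LPS, which do not overlap, and its change of -0.92 just missed the threshold (adjusted p = 0.053). Nlrp3 rose by 1.41 and 1.38. It was 12.6, 14.1 and 8.71 TPM in WT LPS and 25.6, 22.3 and 24.4 TPM in cGAS-/- LPS, which do not overlap either, and its higher estimates in cGAS-/- cells, 0.99 with LPS (adjusted p = 0.056) and 1.02 in untreated cells (adjusted p = 0.057), missed the threshold as closely. Il1b rose by 4.33 and 7.22. It was 127, 156 and 45.5 TPM in WT LPS and 915, 771 and 856 TPM in cGAS-/- LPS, higher by 3.11 on the log2 scale (adjusted p = 0.0091). When WT LPS replicate 3 was left out, Il1b (2.57) and Nlrp3 (0.80) were higher in cGAS-/- LPS, against 3.84% of tested genes, and Casp4 (-1.06), Casp1 (-0.57) and Pycard (-1.09) were lower. In untreated cells 0 of the 6 passed between the genotypes by limma, and 1, Nlrp3, had an unadjusted p under 0.05 and passed without that library (adjusted p = 0.0024). Of the 6 isoprenylation enzymes, which make or attach the lipid that some GBPs carry or, like the protease Zmpste24 and the methyltransferase Icmt, process the end of such proteins afterwards, Fnta and Zmpste24 fell with LPS in WT cells by 1.06 and 1.28, and Fdps rose in cGAS-/- cells by 1.43 and was higher in cGAS-/- than in WT LPS by 1.41 (adjusted p = 0.018). With WT LPS replicate 3 left out the change of Zmpste24 was -0.83, and it was higher in cGAS-/- LPS by 0.74, while Fnta (-0.62) was lower with LPS in cGAS-/- cells too. In untreated cells 0 of the 6 passed by limma, also at an unadjusted p under 0.05.

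Interferon-induced genes of other families gave a like picture. Of 13 tested, 12 rose with LPS in WT cells and 13 in cGAS-/- cells, against 4.31% and 4.76% of tested genes, with medians of 4.07 and 3.77, and 11 went beyond a log2 fold change of 2 in each. Isg15 rose by 5.13 and 5.82, Usp18 by 4.55 and 4.54, Ifi44 by 4.48 in each, Irf7 by 4.46 and 5.42, Zbp1 by 4.21 and 5.43, Rsad2 by 4.13 and 4.31, and Oasl1 by 4.07 and 3.77. Oas3 rose by 3.75 and 2.72, Ifi204 by 2.71 and 2.49, Xaf1 by 2.52 and 3.24, Oasl2 by 2.41 and 3.59, and Oas2 by 1.11 and 2.0. Ifih1 rose in cGAS-/- cells (1.83) and had an estimate of 0.92 in WT cells (adjusted p = 0.21). Between the genotypes 0 of the 13 passed with LPS by limma (4 at an unadjusted p under 0.05) and 0 in untreated cells (7). In the fit without WT LPS replicate 3, Ifih1 (1.63) passed in WT cells, and 7 of the 13 were lower in cGAS-/- cells with LPS and 6 in untreated cells, against 4.44% and 4.17% of tested genes. In untreated cells 11 were without overlap and lower in cGAS-/- cells, against 18.4% of tested genes, and the median over the 13 was -0.89.

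The 5 tested genes outside these lists whose levels went most closely with the mean log2 level of the members were Ifi206, Dhx58, Cmpk2, Slfn4 and Cxcl9, with Pearson r between 0.989 and 0.994 over the 12 libraries. All of them are interferon-inducible. Ifi206, for example, was 58.0, 98.3 and 26.8 TPM in WT LPS and 41.1, 42.3 and 40.4 TPM in cGAS-/- LPS, with the same order of the WT LPS replicates as in Gbp2. The 12 libraries share the split between LPS and untreated cells, which sets most of such an r. Of the members themselves, Gbp3 was the closest to their mean (r = 0.997), and Tgtp1 (0.894) and Igtp (0.935) were the farthest. Each member is part of that mean, which raises its r, so these values are not comparable with those of the outside genes.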

How the data were processed

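RNA of 12 BMDM libraries was sequenced with a strand-specific kit. The authors used fastp, STAR and Kallisto with GRCm39, per the labels and methods, and tested groups by edgeR and limma. The authors deposited normalized values, which were read as TPM, each the average for the transcripts of one symbol. No source states this unit, and it rests on the pattern of the values. Column totals differ and depth is unknown, so no counting error is given. Genes with at least 1 TPM in at least 3 samples, with all samples scaled to one total for this filter alone, were tested (11887 genes) on the log2(TPM + 1) scale. The model of limma 3.58.1 (R 4.3.3) held 1 mean for each of the 4 conditions and a variance trend, fitted to the 12 samples, with two-sided tests and Benjamini-Hochberg adjustment over all tested genes. The fit was tested on simulated data in which each gene had the same spread in every group. That test therefore cannot speak for the wider spread of the WT LPS libraries. The methods of the study require an adjusted p under 0.05 together with a log2 fold change beyond 2, whereas calls here rest on the adjusted p, with the fold given separately. Transcripts were compared by blastn 2.17.0 (identity of at least 90%), with GENCODE gene models.

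Named genes are all members and other family genes, genes of the other lists past the threshold in any comparison, Irf1, Irf8, Ifng, Ifnb1 and Casp4, and the 5 genes nearest in pattern. Some genes under this rule are not reported here. The members and lists were chosen with earlier results of these data known. Alternatives were a pseudocount of 0.1 or 5, no filter, median-ratio factors, quantile normalization, the samples of a comparison alone, a replicate block, sample weights, and leaving out each sample.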

Additional observations from a re-analysis of the deposited data

How the results depend on the processing

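With LPS between the genotypes, 2 members passed. The count was 0 with a pseudocount of 0.1, 0 without the filter, 5 with median-ratio factors, 5 with quantile normalization, 0 with the samples compared alone and 0 to 7 when 1 library was left out. The 5 with median-ratio factors leave out Igtp (adjusted p = 0.057) and hold Gbp2, Gbp3, Gbp5, Ifi47 and Tgtp1, and the 5 with quantile normalization are Gbp3, Gbp5, Igtp, Ifi47 and Tgtp1. In untreated cells 1 passed, against 0 with a pseudocount of 5, 5 with the samples alone, 6 with sample weights and 0 to 4 with 1 library left out. Over all tested genes 188 were lower in the main fit, 251 with a pseudocount of 5, 841 with the samples alone and 954 with sample weights. Without WT LPS replicate 3, which gave the 4, it was 496. With median-ratio factors the untreated count stayed at 1, but Ifi47 no longer passed (adjusted p = 0.14) and Gbp2 did (adjusted p = 0.017). For the interaction the count was 0, but 1 with median-ratio factors, quantile normalization or sample weights, and 0 to 1 with 1 library left out. The 1 was Tgtp1, with a negative estimate. Negative calls over all tested genes were 20 in the main fit, 43, 50 and 63 with these settings in turn and 195 without WT LPS replicate 3. A fit with the replicate number as a replicate block gave 0 members in either comparison of genotypes. The numbers are no pairing, since deviations of same-numbered samples correlated between -0.0315 and 0.0383, and 12 of 36 comparisons of a sample with another group were highest for its own number. The causes of these changes were not tested.

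Some estimates changed sign. With LPS between the genotypes Gbp6 was -0.14 with median-ratio factors, -0.27 with sample weights and -0.59 to 0.93 with 1 library left out. The ranges with 1 library left out were -0.79 to 0.18 for Gbp7, -0.58 to 0.28 for Irgm1 and -0.45 to 0.29 for Irgm2. In untreated cells Tgtp1 was 1.3e-04 after quantile normalization and -0.10 to 0.048 with 1 library left out. The interaction of Gbp3 was 0.093 and that of Gbp5 0.34 with a pseudocount of 0.1. That of Gbp7 was -0.13 with a pseudocount of 5, -0.29 with median-ratio factors and -0.17 with quantile normalization, that of Irgm2 -0.32 and -0.092 with the latter pair, and that of Ifi47 -0.14 with a pseudocount of 5 and -0.21 with median-ratio factors. With 1 library left out the interactions ranged from -0.79 to 0.077 for Gbp3, -0.74 to 0.067 for Gbp5, -0.13 to 1.40 for Gbp6, -0.26 to 0.72 for Gbp7 and -0.12 to 0.63 for Irgm2.

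No member reversed in either comparison of LPS with untreated cells. Over all genes, 15.6% of the calls with LPS in WT cells were higher, against 41.5% with median-ratio factors and 39.5% with quantile normalization. In cGAS-/- cells the share was 34.4%, against 49.6% and 45.2%. Between untreated genotypes it was 13.8%, against 17.2% and 26.7%, and for the interaction 81.3%, against 71.9% and 66.9%. The spread of the WT LPS libraries and an unknown depth limit what can be told between genotypes.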
